A study of Mus musculus with 2 samples.

Results

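The genes described here encode the machinery that copies DNA and makes its building blocks, from the proteins that mark and load replication origins to the enzymes of deoxynucleotide synthesis, with a few factors that copy chromatin and the E2F factors that control such genes. The list holds 43 genes. A probe set, the group of array probes that reports one transcript, with a single gene symbol was found for 42 of them, out of 18193 genes on the array, and the exception was Chaf1a. The array study compared mouse embryo fibroblasts (MEFs) of wild type embryos with MEFs of Ebp1 knock out embryos, both taken at day 12.5, grown in medium with serum and used at passage 2. The knock out mice carry a retroviral gene trap in an intron of Pa2g4, the gene that encodes Ebp1, on a mixed C57BL/6 and 129SvEvBrd background. The insertion leaves a short fusion of the first residues of Ebp1 with the selection marker. The sources do not say how many embryos gave each culture. Each genotype was hybridized on 1 array, so every value below is a single measurement, no error or p-value can be given, and a difference between the arrays cannot be told apart from a difference between 2 cultures of the same genotype.

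Before a cell divides it copies each chromosome once. In G1 phase the origin recognition complex, Cdc6 and Cdt1 load a ring of MCM proteins onto DNA. In S phase this ring becomes the active helicase with Cdc45 and the GINS complex, and polymerases follow it, held on DNA by the sliding clamp PCNA. Transcription of most of these genes rises at the G1/S border, when E2F factors are released from the retinoblastoma (Rb) family of pocket proteins. Ebp1 is known to bind Rb and to repress E2F1-regulated promoters when it is overexpressed, which is why the expression of this group in cells with the gene trap is of interest.

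Some promoters of the group carry the letters of an E2F site. TTTNNCGC, searched on both strands with overlaps counted, was found in the window from 250 bases before to 50 bases after a gene start (RefSeq, GRCm38.p6) for 16 of the 36 genes with an entry in the promoter table (44.4%), against 5.93% of all genes in that table. Among genes measured on these arrays, the shares were 42.4% (14 of 33) and 10.3%. A match is a description of letters and was not tested for binding. The 5 most negative and 3 most positive genes of the group were looked at one by one. Cdc45, Fen1 and Pola2 had an entry and no match, Prim2 and Pole had no entry, and Mcm5, lower in knock out MEFs, and Orc1 and Rfc3, higher in them, had such a match. The stretches before the gene start are shown 5′ to 3′ on the strand of the gene, with the matches in capitals. They lie at chr8:75109316-75109407 (plus strand) for Mcm5, chr4:108579387-108579453 (plus strand) for Orc1 and chr5:151651209-151651258 (minus strand) for Rfc3.
Mcm5: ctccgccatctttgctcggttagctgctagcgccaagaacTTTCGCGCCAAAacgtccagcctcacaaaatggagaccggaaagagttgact
Orc1: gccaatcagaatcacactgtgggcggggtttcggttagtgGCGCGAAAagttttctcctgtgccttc
Rfc3: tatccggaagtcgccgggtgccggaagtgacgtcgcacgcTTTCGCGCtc

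In Mcm5 the capitals are 2 overlapping matches on opposite strands, the first starting 153 bases before the gene start. In Orc1 the match is on the opposite strand, and in Rfc3 it ends 3 bases before the start. A second match of Rfc3 begins at the gene start and is not shown. Genes with these letters were thus found on both sides of 0, and the measured genes of the group with a match had a median log2 ratio (knock out signal over wild type signal) of -0.21 (14 genes, 12 lower), against -0.17 for those without one (19 genes, 14 lower).

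Both arrays had been scaled by the authors to the same target intensity. The wild type array had a median signal of 66.5 intensity units and the knock out array one of 71.6, and signals under 100, here treated as low, made up 57.9% and 57.1% of the probe sets. On the probe set used, Pa2g4 was 1835 (wild type) and 1178 (knock out), a log2 ratio of -0.64. All 5 of its probe sets were lower, by log2 ratios from -0.90 to -0.33, and where they lie relative to the insertion was not analysed. The array labelled knock out thus kept 64.2% of the wild type signal of the targeted gene, so this check gives the direction of the label but not the loss of the transcript. By RT-PCR, the study detected the Ebp1 transcript in wild type but not in knock out MEFs. Its Western blot showed no Ebp1 protein in knock out MEFs. All 7 fibroblast markers had signals of at least 1952 on both arrays, with log2 ratios from -0.67 for Pdgfrb and -0.58 for Thy1 to 0.26 for Col1a2 (4 of 7 above 0, all below 0 with spike-ins), while the 3 blood markers with a probe set (Ptprc, Cd68 and Hba-a1) were under 100 on both. Of the epithelial markers Krt8, Krt18 and Cdh1 were under 100 on both arrays and Epcam was 174 (wild type) and 1350.5 (knock out), of the endothelial ones Kdr was 101 and 156 with the other 3 low, of the neural ones Nes (344 and 470.5) and Tubb3 (169.7 and 122) were not low, and of the muscle ones Acta1 was 486 and 699. The summed epithelial signal went from 348 to 1562 between the arrays, which rests on Epcam, and its part in the results below was not tested.

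The genes of this list, which was chosen with earlier results of these data known, were slightly lower as a group in Ebp1 knock out MEFs. The differences were small. A gene was counted as measured when the geometric mean of its 2 signals was at least 100, which held for 40 of the 42 genes. All 40 were also over 100 on each array, with signals from 107 to 3055. Of them, 32 (80.0%) had a lower and 8 a higher signal in knock out MEFs, while 58.7% of all 10067 measured genes were lower. The median log2 ratio was -0.18, a knock out signal of 88.2% of wild type, against -0.07 for all measured genes. Relative to that median of all genes, 27 of the 40 were below it. Of 42 other measured replication and nucleotide genes, described further below, 21 were. Only Prim2 and Cdc45 were over 1.5-fold lower, where 6.29% of all measured genes were, and none was over 1.5-fold higher, where 4.06% of all were. Under the minimum of the study's methods, 500 intensity units on at least 1 array, 20 of the genes qualified and none was over 2-fold apart, against 1.81% of all genes that reached 500. In bulk RNA, fewer cells in S phase and less of these mRNAs in each cell cannot be told apart.

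**Figure D1:**
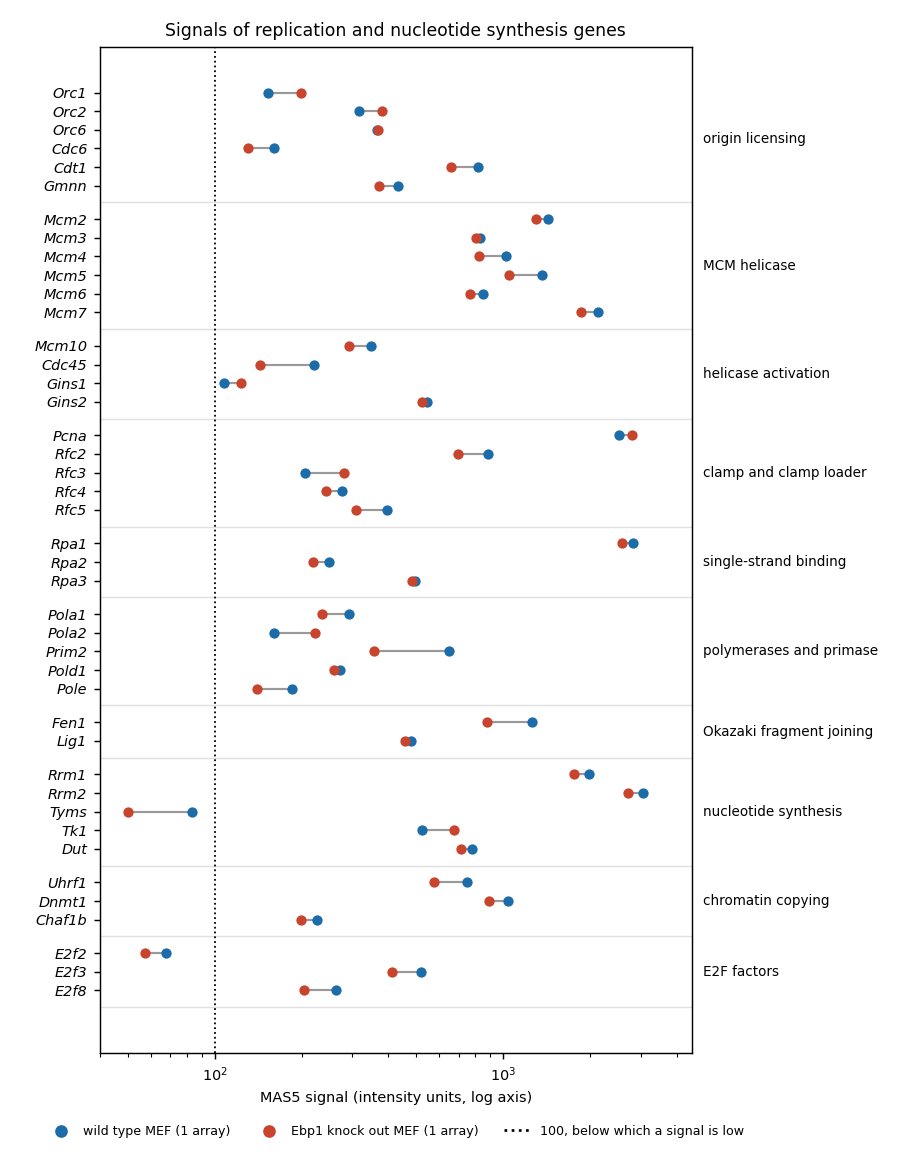
MAS5 signals of the 42 genes with a probe set, in intensity units on a logarithmic axis, for wild type (blue) and Ebp1 knock out MEFs (red), 1 array each, ordered by role. The red point lies to the left of the blue one for all 6 MCM genes and by the widest step among measured genes for Prim2 (648 and 355), while Tyms and E2f2 lie under the dotted line at 100.

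The MCM helicase is the motor that unwinds DNA. On the probe sets used, all 6 of its genes were lower in knock out MEFs, with a median log2 ratio of -0.17. They stayed lower with quantile normalization and loess, the scalings that could have turned them (median centring and spike-ins subtract a constant). Another choice of probe set did turn Mcm3, as given below. Of all genes, 58.7% were lower. Wild type signals are given first here and below. Mcm5 was 1365 and 1046, the largest step of the 6 (log2 ratio -0.38). Mcm4 was 1024 and 822 (-0.32). Mcm7, a gene that also hosts a microRNA cluster, was 2129 and 1862 (-0.19). The other 3 differed less: Mcm6 was 852 and 770.0 (-0.15), Mcm2 was 1425 and 1302 (-0.13) and Mcm3 was 834 and 802 (-0.06). The last of these was above the median of all genes. Other probe sets of Mcm7 (616 and 709.96, 0.20) and Mcm3 (199 and 215, 0.11) were on the higher side.

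Genes that load and license the ring went both ways. The loading factor Cdt1 was lower (815 and 657, log2 ratio -0.31), and so was Cdc6, the ATPase that acts with it (161 and 131, -0.30). Geminin, the inhibitor that binds Cdt1 and prevents a second round of loading, was also lower, with signals of Gmnn of 431 and 369.5 (-0.22). The 3 subunits of the origin recognition complex in the list stood apart from them. Orc1, the subunit whose level cycles, was 152 and 198 (0.38) and Orc2 was 317 and 379 (0.26). Of the 5 scalings, only spike-in scaling put these 2 values below 0. A second measured probe set of Orc2 was on the lower side, at 214 and 198 (-0.11). Orc6 was 366 and 369 (0.01) and was below 0 after median centring too. Among subunits that are no members of the list, Orc3 was 466 and 467 (0.00) and Orc5 was 240 and 234 (-0.04). Orc4 was 541 and 697 (0.36, below 0 after spike-in scaling).

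Of the factors that turn the loaded ring into a moving helicase, Cdc45 had the second most negative log2 ratio among the 40 genes. Its signals were 221 and 144 (-0.62), and 5.48% of all measured genes had a more negative log2 ratio. Mcm10, which helps to activate the helicase, was 347 and 293 (-0.25). The GINS subunits differed in direction under the deposited scaling. Gins2 was 542 and 524 (-0.05), and Gins1, the gene nearest to the low limit, was 107 and 123 (0.20, or -0.19 after spike-in scaling).

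Polymerase and primase genes held the extremes of the group. Prim2, the large subunit of the primase that lays down RNA primers, had the most negative log2 ratio of the 40 genes, with 648 and 355 (-0.87). Only 1.97% of all measured genes had a more negative one. Pola2, the accessory subunit of the polymerase that is bound to this primase, had the most positive log2 ratio, at 159.8 and 223 (0.48), and it was above 0 under all 5 scalings. These are the products of a single complex. Its catalytic subunit gene Pola1 was 292 and 234 (-0.32), and Prim1, the small primase subunit and no member of the list, was 607 and 571 (-0.09). The leading strand polymerase gene Pole was 186 and 140.0 (-0.41), and Pold1, the catalytic subunit of the lagging strand polymerase, was 271 and 259 (-0.06).

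At the clamp, Pcna was higher in knock out MEFs, at 2524 and 2805 (0.15, or -0.24 after spike-in scaling). The genes of its loader, replication factor C, were split. Rfc5 (395 and 309, -0.35), Rfc2 (884 and 695, -0.35) and Rfc4 (276 and 243, -0.18) were lower, whereas Rfc3 was 205 and 281 (0.46), higher under all 5 scalings. A second measured probe set of Rfc2 was 162 and 168 (0.05). Rfc1, another subunit of the loader and no member of the list, was 434 and 314 (-0.46). Of the lagging strand enzymes, Fen1, the nuclease that trims flaps, was 1255 and 875 (-0.52), and Lig1, the ligase that seals the nicks, was 479 and 458 (-0.06). The 3 subunit genes of RPA, which coats single-stranded DNA, were close to the median of all genes, with Rpa1 at 2825 and 2591 (-0.13), Rpa2 at 248 and 219 (-0.18) and Rpa3 at 494 and 484 (-0.03, or 0.01 after loess).

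Of the genes of deoxynucleotide synthesis, 3 of the 4 measured were lower on the probe sets used, where 58.7% of all genes were, but with the measured probe sets of a gene averaged both Rrm1 (0.58) and Rrm2 (0.20) were higher. Rrm1 and Rrm2 encode the subunits of ribonucleotide reductase, the enzyme that makes deoxynucleotides. Rrm1 was 1980.2 and 1754 (-0.17), and Rrm2 was 3055 and 2708 (-0.17). Dut, the enzyme that keeps uracil out of DNA, was 779 and 711 (-0.13). Thymidine kinase, the salvage enzyme encoded by Tk1, was in contrast higher, at 522 and 674 (0.37, or -0.02 after spike-in scaling). Tyms, which encodes thymidylate synthase, was under 100 on both arrays on its brightest probe set (83.4 and 49.9), so no fold is given. Its other 3 single-symbol probe sets were under 100 as well, while a probe set annotated to both Tyms and its pseudogene was 555 and 584 (0.07, below 0 after median centring and with spike-ins). It was not used, since their transcripts cannot be told apart on it, so the level of Tyms is uncertain.

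Chromatin and E2F genes of the list were lower for all 5 measured, where 58.7% of all genes were, and stayed below 0 with quantile normalization and loess. Uhrf1, which brings the maintenance methyltransferase to newly copied DNA, was 748 and 577 (-0.37). Dnmt1, that methyltransferase, was 1043 and 895 (-0.22), and Chaf1b, a subunit of the chromatin assembly factor that deposits histones behind the fork, was 227 and 199 (-0.19). E2f8, one of the atypical repressors, was 263 and 204 (-0.36). E2f3, an activator, was 518 and 412 (-0.33). E2f2, the other activator of the list, was under 100 on both arrays (67.6 and 57.3).

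**Figure D2:**
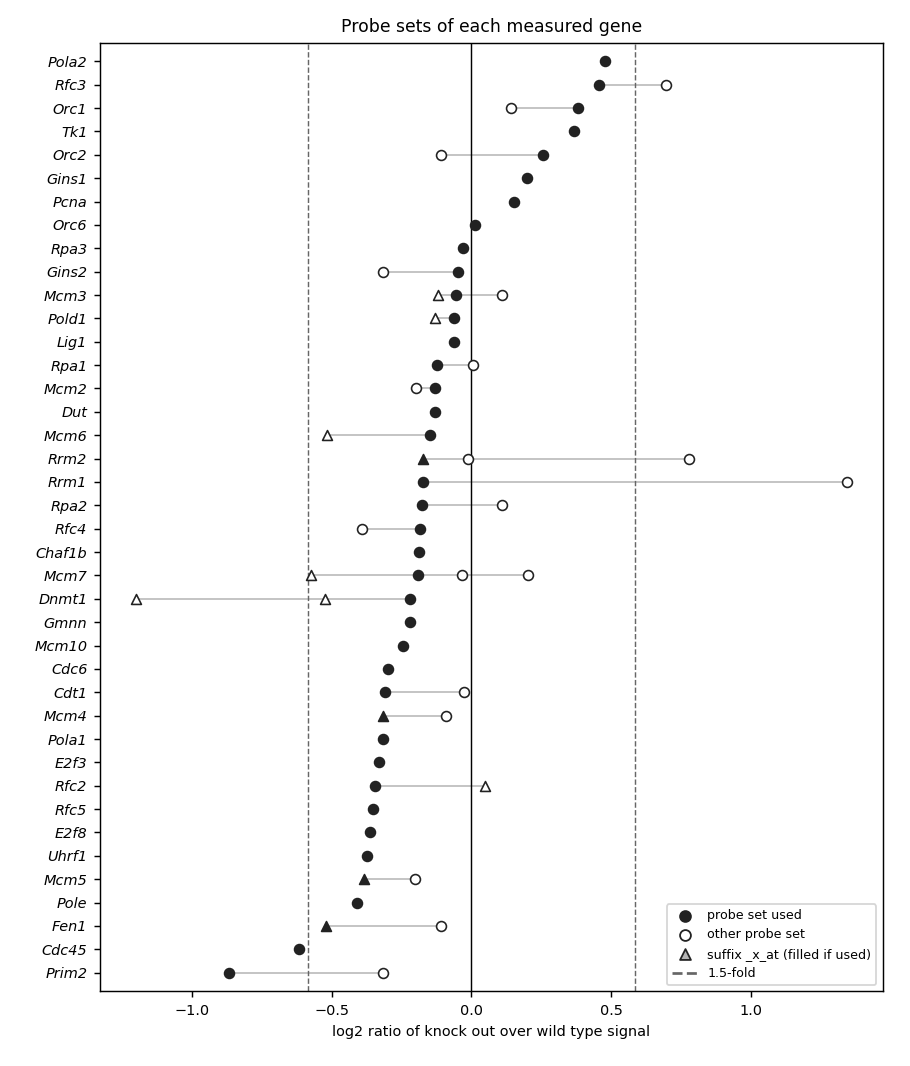
Log2 ratio (knock out over wild type) for each measured probe set of the 40 measured genes, ordered by the probe set used (filled), with triangles for probe sets of the suffix _x_at and dashed lines at 1.5-fold. Only Cdc45 and Prim2 have a filled point beyond a dashed line, and Rrm1, Rrm2 and Dnmt1 have open points far from theirs.

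Many of these genes had several probe sets, which share the same arrays and are not replicates. Of the 93 probe sets of the group, 66 were measured, and 49 of these (74.2%) were lower in knock out MEFs, against 52.8% of all measured single-symbol probe sets. In 21 genes with at least 2 measured probe sets, all probe sets were lower in 11, all were higher in 2 and they lay on both sides of 0 in 8. Of 4166 such genes over the whole array, the counts were 1027, 959 and 2180. Their pooled standard deviation within a gene was 0.35 on the log2 scale, and 0.38 for all genes. The log2 ratios of 29 of the 40 genes were no larger than this, and of the others 7 were lower and 4 higher. Orc1 and Rfc3 were the 2 with both measured probe sets higher.

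Probe sets of the ribonucleotide reductase genes differed in direction. Rrm1 had another one with signals of 396 and 1006 (log2 ratio 1.34), in the opposite direction to its brightest one. It was the only probe set of the group over 2-fold apart with a signal of at least 500, a rule that 2.61% of all such probe sets met. Rrm2 had 769.7 and 1321 on a dimmer probe set (0.78), and 1694 and 1680.5 on the third (-0.01). In Dnmt1 the 3 probe sets lay on the same side but were spread, from -1.20 on the dimmest (201 and 87.5) to -0.22. Both more negative ones have the suffix _x_at, described below, and the dimmest was under 100 on the knock out array. Prim2 was also lower on its second measured probe set, by less (319 and 256, -0.32), and Cdc45 had a single measured one. Fen1 was 330.3 and 306 on its second (-0.11).

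Probe sets with the suffix _x_at, which contain probes that can cross-hybridize with other transcripts, gave lower log2 ratios than the others of the same gene. This was so for 9 of the 10 genes of the group that had both kinds, with a median difference of -0.30, and for 73.3% of 795 genes over the whole array, with a median difference of -0.16. Among the MCM genes, Mcm6 was 775 and 541 (-0.52) on such a probe set and Mcm7 was 418 and 281 (-0.58). The values of Mcm4, Mcm5, Fen1 and Rrm2 given above come from _x_at probe sets. On their other probe sets Mcm4 was 862 and 809.8 (-0.09) and Mcm5 was 514 and 447 (-0.20). With probe sets of neither suffix, _x_at nor _s_at, 31 of 40 genes were lower (77.5%), where 56.7% of all genes were. Mcm3 was then higher (0.11), and Mcm7 was close to 0 (-0.03).

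**Figure D3:**
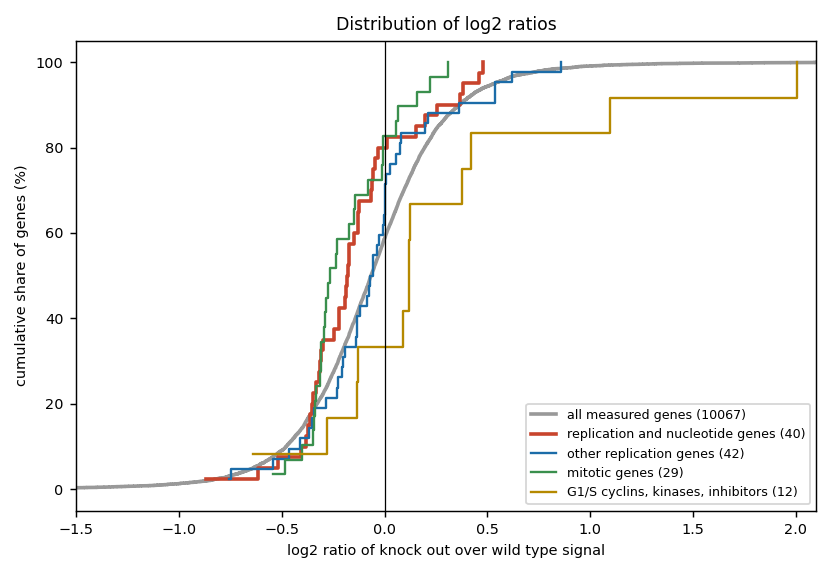
Cumulative share of genes, in percent, against the log2 ratio (knock out over wild type), for all 10067 measured genes (grey), the 40 genes of the group (red) and 3 other lists. At 0 the red line stands at 80.0%, the grey one at 58.7%, mitotic genes at 82.8% and other replication genes at 64.3%.

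Other genes of the pathway had a median nearer to that of the array. Of 46 other replication and nucleotide genes with a probe set, chosen for function and not in the list above, 42 were measured, and 27 (64.3%) were lower and 15 higher, with a median log2 ratio of -0.06, against -0.07 for all measured genes. Nme1, a nucleoside diphosphate kinase, was 3899 and 4465 (0.20, below 0 after spike-in scaling). Pold3, an accessory subunit of polymerase delta, was 244 and 145 (-0.76), and Timeless, a component of the fork protection complex, was 194 and 115 (-0.75). These were the ones over 1.5-fold lower. Dctd, which encodes the deaminase that supplies deoxyuridylate, was 130.2 and 236 (0.86), and Samhd1, which encodes an enzyme that breaks down deoxynucleotides, was 630.3 and 969 (0.62). They were the ones over 1.5-fold higher under the deposited scaling.

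The E2F and pocket protein genes outside the list lay on both sides of 0, in a share near that of all genes. Of 14 measured, 8 were lower (57.1%, where 58.7% of all measured genes were) and 6 higher. Their median log2 ratio was -0.10, against -0.07 for all measured genes. The extremes were -0.52 for Lin54, which encodes a DNA-binding subunit of the MuvB complex, and 0.19 for E2f6, which encodes a repressor without a pocket protein site. E2f1, the factor whose target promoters Ebp1 is known to bind in a complex, was 289 and 307 (0.09, and negative once the arrays were median centred or scaled to spike-ins). Tfdp1, the dimerization partner of the E2F factors, was 1392 and 1534 (0.14), and like E2f6 it was below 0 after spike-in scaling.

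Mitotic genes, which act later in the cycle, were also mostly lower. Of 29 measured, 24 (82.8%) were lower, where 58.7% of all measured genes were. The median log2 ratio was -0.27, against -0.07 for all measured genes. None was over 1.5-fold apart, where 6.29% of all were over 1.5-fold lower and 4.06% over 1.5-fold higher. Mki67, the proliferation marker, was 1409.9 and 1009 (-0.48), and Cdc25c, the phosphatase that activates Cdk1, was 202 and 139 (-0.54). Cdc20, an activator of the anaphase-promoting complex, was 2688 and 2195 (-0.29). Ube2c, its ubiquitin-conjugating enzyme, was the most positive, at 1102 and 1363 (0.31, below 0 after spike-in scaling).

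Regulators of the G1/S step were mostly on the higher side under the deposited scaling. Of 12 genes of G1/S cyclins, their kinases and inhibitors, 8 were higher and 4 lower (33.3%), while 58.7% of all measured genes were lower. Their median log2 ratio was 0.12, and spike-in scaling, which takes 0.39 from every log2 ratio, puts it below 0. Ccne1, which encodes cyclin E1 and is itself an E2F target, was 1533 and 982 (-0.64), the only one over 1.5-fold lower. Cdkn2a, which encodes the inhibitor p16 and the protein Arf, was 109 and 435 (2.00), and Ccnd1, which encodes cyclin D1, was 1730.4 and 3694 (1.09), the ones over 1.5-fold higher. These genes were named after their values were seen. Whether these lists differ from each other could not be tested with 1 array per genotype.

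**Figure D4:**
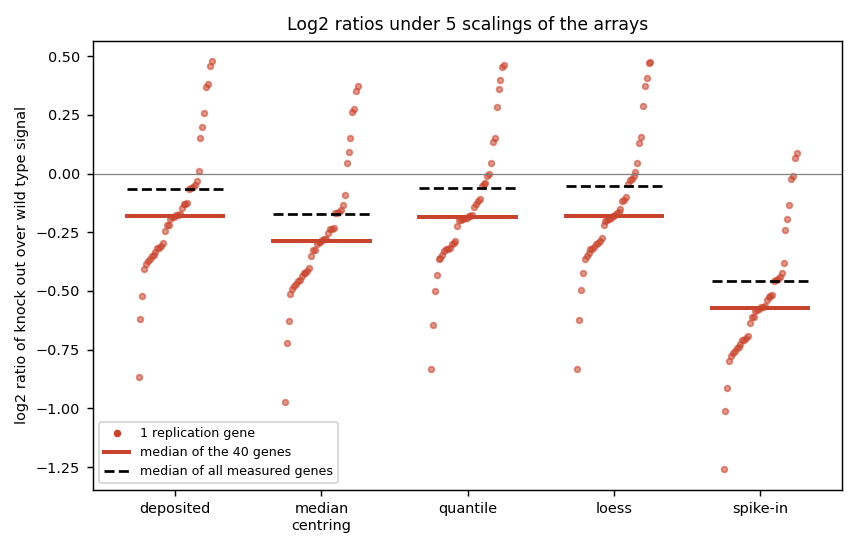
Log2 ratios of the 40 measured genes (points, sorted within each scaling) under 5 scalings of the arrays, with their median (red line) and the median of all measured genes (dashed). The red line lies below the dashed one each time, by 0.11 to 0.13, while both move down with spike-in scaling.

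How far the group stood from 0 depended on the scaling, while its distance from all genes varied little. Median centring moved the median of all measured genes by -0.11 and scaling to the 9 hybridization spike-ins, which were 1.31 times brighter on the knock out array, by -0.39. The number of lower genes among the 40 was 33 with median centring, 32 with quantile normalization, 31 with loess and 38 with spike-ins, and the corresponding shares of all genes were 71.3%, 58.4%, 57.6% and 91.1%. The median of the group minus that of all genes was -0.11 under the deposited scaling, median centring and spike-ins, which add a constant, and -0.13 with quantile normalization and loess. In each case 27 of the 40 lay below the median of all genes. Taken gene by gene, 31 were lower under all 5 scalings, of which 2 could only lower a ratio, Pola2 and Rfc3 were higher under all 5, and 7 changed sign. By mean signal, 16 of 22 genes of the group were lower from 100 to 500 (59.9% of all genes), 14 of 15 from 500 to 2000 (60.5%) and 2 of 3 above 2000 (43.9%), and the medians of the first 2 classes were near each other, at -0.19 and -0.19.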

How the data were processed

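Total RNA of wild type and Ebp1 knock out MEFs was labelled with biotin and hybridized to Affymetrix arrays, 1 per genotype. The methods name a human array type, while the deposited probe sets are those of the mouse platform whose annotation was used here. The authors made the deposited intensity values with MAS5, which gives 1 linear signal per probe set, and scaled each array to a constant target intensity. Groups were taken from the sample labels. Of 45037 probe sets without controls, 34945 had 1 gene symbol, 932 several and 9160 none in the platform annotation. For 34741 of the probe sets with 1 symbol, the Entrez identifier was found in the reference (GRCm38.p6). A gene was represented by its single-symbol probe set with the highest mean log2 signal, and its knock out signal was divided by its wild type signal and put on the log2 scale. Genes with a geometric mean signal of at least 100 were counted as measured. Folds of 1.5 and 2 were used, the latter with at least 500 on at least 1 array.

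No test was run. The number of arrays limits the precision, and the spread between cultures is unknown. The members, lists and settings were chosen with earlier results of these data known. All members are reported. Of the other replication, E2F and mitotic lists, the brightest, the most negative and the most positive gene were named by rule. E2f1, Ccne1, Cdkn2a, Ccnd1, Prim1, Mki67, Timeless, Samhd1, Orc3, Orc4, Orc5 and Rfc1 were chosen after their values were seen. The alternatives were 4 other scalings (loess fraction 0.3), a floor of 100, an offset of 50, different minimum signals and other choices of probe set. The steps were tested on simulated data. The loess used statsmodels 0.14.6, figures matplotlib 3.10.9, and all else pandas 2.3.3 and numpy 2.4.6 under Python 3.11.15.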

Additional observations from a re-analysis of the deposited data

How the results depend on the processing

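No paired analysis was possible because each genotype has 1 array. The median of the 40 genes was below 0 under every alternative run, from -0.57 with spike-ins to -0.16 with 50 added. Averaging the measured probe sets of each gene left 30 of 40 lower (75.0%, against 54.0% of all genes), and with at least 500 on at least 1 array, which leaves 20 genes, 18 were (57.8% of all). The count over 1.5-fold lower, 2 as reported, was 17 with spike-ins (33.9% of all genes) and 3 with median centring (9.98% of all genes). It was 1 with 50 added, 1 with at least 500, and 3 with averaged probe sets and with no minimum. For these last settings the share of all genes was not computed. The count over 2-fold with at least 500, 0 as reported, was 1 with spike-ins (Prim2, -1.26), where the share of all genes was not computed. Counts with a minimum of 500 or with no minimum can differ by construction, since 20 and 42 genes enter in place of 40. Spike-ins take the same constant from every log2 ratio. Of 320 values of the 40 measured genes, 11 changed sign (6 under spike-in scaling), and that of Rrm1 alone differed by over 1.5-fold, at 0.58 when its probe sets were averaged. Dim signals limit the ratios, as the standard deviation of the log2 ratio across genes was 0.46 at mean signals from 100 to 500 and 0.24 above 2000.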
